A study of Mus musculus with 36 samples.

Results

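The genes described here make, break down or sense prostanoids: the cyclooxygenases Ptgs1 and Ptgs2, the prostaglandin E synthases Ptges, Ptges2 and Ptges3, thromboxane synthase Tbxas1, the prostaglandin dehydrogenase Hpgd, and the prostaglandin E2 receptors Ptger2 and Ptger4. These 9 genes were chosen by symbol, with earlier results of these data known. A transcript cluster, the set of probes that the array summarizes into 1 value, was used where its annotation gave exactly 1 of these symbols, and the brightest cluster of a symbol, by its mean over the 36 arrays, was taken. By this rule 8 of the 9 genes were measured, out of 19938 gene symbols tested in all. Ptgs1 had no such cluster and was not analysed here. Ptges3 had 3 clusters, and whether these read separate copies of the sequence was not tested.

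RNA came from dendritic cells (DCs), which were derived from the marrow of 10 to 12 weeks old Balb/c mice in 100 ng/ml GM-CSF, a growth factor that drives myeloid cells and DCs, and harvested on day 6. From day 4 some cultures also received 200 nM recombinant human soluble thrombomodulin (sTM), the freed extracellular part of a thrombin-binding surface protein, and the others received none (untreated). In 3 of 4 experiments, cells were separated with an antibody to thrombomodulin (TM) and magnetic beads into TM+ and TM- DCs, with a stated purity above 93%. There were 6 arrays of TM+ DCs from sTM cultures and 6 of TM- DCs from sTM cultures (experiments 2, 3 and 4), 4 of TM+ DCs from untreated cultures and 4 of TM- DCs from untreated cultures (experiments 3 and 4), and 8 of unsorted DCs with sTM and 8 of untreated unsorted DCs (experiments 1, 2 and 3). The labels call arrays of 1 group and experiment biological replicates without saying whether they came from separate cultures or mice. Spread between such arrays may thus be technical in part. The p-values of the main tests rest on this spread and on part of the spread of a group between experiments. Where each experiment has its own mean, they measure only the spread between such arrays.

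Cyclooxygenases turn arachidonic acid, freed from membranes by phospholipases, into prostaglandin H2, which terminal synthases then convert into the individual prostanoids. Ptgs1 is the form most tissues carry at rest, while Ptgs2 is induced by inflammatory stimuli, often together with the microsomal synthase Ptges, which makes prostaglandin E2. In DCs, prostaglandin E2 acts through the receptors EP2 (Ptger2) and EP4 (Ptger4), which raise cyclic AMP, and is known for its effects on maturation, cytokine output and migration toward lymph nodes.

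Promoters of the 3 genes that differed most between the fractions are shown because 2 of them, Ptgs2 and Ptges, moved together and the other, Tbxas1, moved the opposite way. The sequences are from RefSeq on GRCm38.p6, read 5' to 3' on the strand of the gene. Each runs from 250 bases before to 50 bases after the start given by the first listed promoter of the gene. The first transcribed base is counted as 1. Capitals mark matches to any of 8 short motifs searched on both strands. The Ptgs2 window lies at chr1:150099781-150100080 on the plus strand, that of Ptges at chr2:30903248-30903547 on the minus strand and that of Tbxas1 at chr6:38918736-38919035 on the plus strand. The Ptges and Tbxas1 windows lie inside the full spans of these genes (chr2:30889471-30931020 and chr6:38864159-39084590). Other starts of these genes were not searched.
Ptgs2: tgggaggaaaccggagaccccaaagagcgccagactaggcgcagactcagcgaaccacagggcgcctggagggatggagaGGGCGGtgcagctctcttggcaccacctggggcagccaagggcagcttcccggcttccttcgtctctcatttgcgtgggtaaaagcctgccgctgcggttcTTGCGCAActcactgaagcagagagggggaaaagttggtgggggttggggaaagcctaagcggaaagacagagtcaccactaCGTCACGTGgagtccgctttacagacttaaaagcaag
Ptges: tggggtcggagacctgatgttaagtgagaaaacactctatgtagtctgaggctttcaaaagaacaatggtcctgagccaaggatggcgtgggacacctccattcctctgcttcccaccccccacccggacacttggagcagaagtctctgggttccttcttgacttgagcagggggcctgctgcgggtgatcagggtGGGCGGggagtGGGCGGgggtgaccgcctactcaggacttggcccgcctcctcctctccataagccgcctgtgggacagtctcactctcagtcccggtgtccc
Tbxas1: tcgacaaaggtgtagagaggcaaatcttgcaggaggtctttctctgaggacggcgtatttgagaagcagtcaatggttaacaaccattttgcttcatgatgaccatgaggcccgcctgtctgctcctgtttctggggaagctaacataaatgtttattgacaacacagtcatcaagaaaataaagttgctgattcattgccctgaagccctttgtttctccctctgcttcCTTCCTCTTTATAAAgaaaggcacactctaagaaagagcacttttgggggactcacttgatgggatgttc

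The Ptgs2 window held a GC box (GGGCGG) from base -170 to base -165, a C/EBP motif (TTGCNNAA) from -69 to -62, and the core of the cyclic AMP response element (TGACG, here on the opposite strand, from 14 to 18), which overlapped an E-box (CACGTG) from 17 to 22. The Ptges window held 2 GC boxes, from -53 to -48 and from -42 to -37. In the Tbxas1 window a PU.1 motif (GAGGAAG, on the opposite strand) lay from -20 to -14, directly before TATAAA matches on the opposite strand from -13 to -8 and on the gene's strand from -11 to -6, which overlap each other. Among 32851 RefSeq promoters of 300 bases, GGGCGG occurred in 35.7%, TTGCNNAA in 10.8%, TGACG in 20.8%, CACGTG in 7.15%, GAGGAAG in 13.6% and TATAAA in 13.6%. All 9 genes had a promoter in the table, and only the first listed promoter of each was searched. GC boxes were found in 5 of them, and the C/EBP motif in 2, Ptgs2 and Ptger2. The whole cyclic AMP response element (TGACGTCA, in 1.79% of promoters) and the kappaB motif (5.56%) were in none of the 9. These matches describe letters in a window and were not tested as binding sites.

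The values are log2 array intensities, so that a difference of 1 is a doubling. Across all genes, sorted arrays of the same group and experiment correlated at 0.968 to 0.997, and those of the same group in different experiments at 0.926 to 0.978. Among the unsorted arrays of experiment 1, the 4 numbered 1 and 2 correlated with each other at 0.971 to 0.988, the 4 numbered 3 and 4 at 0.981 to 0.985, and the sets with each other at 0.948 to 0.973. The DC markers Itgax, Cd74 and H2-Ab1 stood at the 98.9, 99.3 and 96.4 percentiles of mean level, while Flt3 and Cd209a stood at the 37.2 percentile. Thbd, which encodes the TM used for the sort, was dim on the array (percentile 32.9) and ranged from 5.76 to 6.92 in TM+ DCs and from 5.65 to 6.50 in TM- DCs. Its difference of 0.24 did not pass the test (limma, adjusted p = 0.12). The difference was 0.30 with arrays quantile normalized and 0.40 without experiment 4, past the test in both, and 0.01 without experiment 3, which was not past it.

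Most granulocyte, eosinophil, and monocyte and macrophage markers were higher in TM+ DCs. In this paragraph higher and lower mean past the limma test on the mean of untreated and sTM cultures. Of all genes 18.6% were higher and 18.7% lower in that test, with a median of -0.08. Of 10 granulocyte markers, 9 were higher in TM+ DCs (median log2 difference over the list 1.34). Their summed intensity was 1897 to 11041 in TM+ DCs and 1175 to 3539 in TM- DCs of sTM cultures, and 7613 to 19026 in TM+ DCs and 1890 to 3732 in TM- DCs of untreated cultures. Of 6 eosinophil markers 4 were higher in TM+ DCs (median 1.24), and of 8 measured monocyte and macrophage markers 6 were higher and 1 was lower (median 0.55). Of 10 mast cell and basophil markers none was higher and 2 were lower in TM+ DCs (median -0.08). Their sums were 1742 to 2933 in TM+ DCs and 1867 to 5937 in TM- DCs with sTM. Without sTM they were 2109 to 2228 and 4186 to 5154. Hdc, the brightest of these 10 by mean level, ranged from 7.30 to 10.44 in TM+ DCs and from 10.02 to 11.59 in TM- DCs (log2). Of 7 megakaryocyte and platelet markers 1 was higher and 1 lower (median -0.16). Their sums were 5799 to 12731 in TM+ DCs and 5711 to 8493 in TM- DCs with sTM. Without sTM they were 4691 to 5958 and 8401 to 9485. The counts called lower in the mast cell and platelet lists are near the share of all genes, and nothing particular is read from them. Of 10 DC and antigen presentation markers 6 were higher and 3 lower (median 0.30), and their sums overlapped, at 20365 to 26756 in TM+ DCs and 18264 to 27674 in TM- DCs. None of the T cell, B cell, natural killer cell or erythroid markers passed the test (limma). With arrays centred on the 75th percentile, 2 of 5 T cell, 1 of 3 natural killer cell and 2 of 2 erythroid markers were lower. So were 4 of the 7 platelet markers. Without experiment 4, 4 DC and antigen presentation markers were higher and 3 lower. No marker is at 0 on this array scale, and the part of these cells in the values below was not tested. In bulk RNA, fewer cells of a type and less RNA per cell cannot be told apart.

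**Figure D1:**
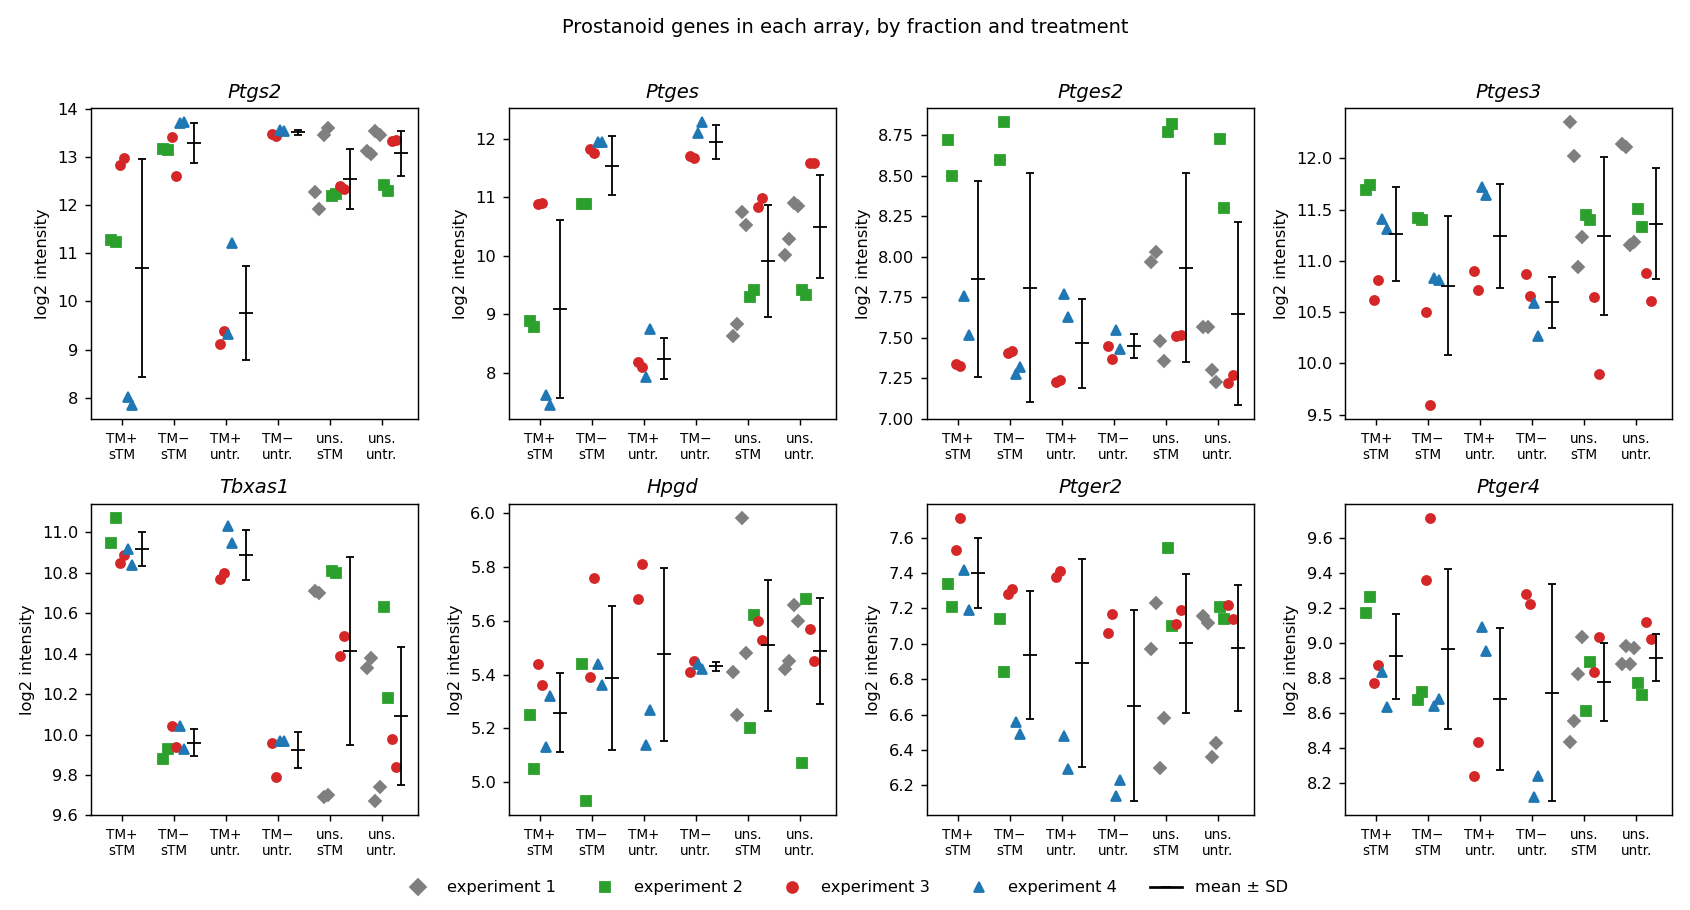
Log2 intensity of each of the 8 measured prostanoid genes, 1 panel per gene, with 1 point per array, coloured by experiment, and bars for the mean and SD of each of the 6 groups. Ptgs2 and Ptges lie lower and more widely spread in TM+ DCs than in TM- DCs, and the TM+ and TM- arrays of Tbxas1 do not overlap.

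TM+ and TM- DCs were compared to ask how the prostanoid pathway differs between the subpopulations. TM+ DCs are those that the antibody and beads bound, so any effect of that binding cannot be told apart from the fraction. Ptgs2 and Ptges, the inducible pair that makes prostaglandin E2, were 9.01-fold and 8.45-fold lower in TM+ DCs. Tbxas1, Ptges3 and Ptger2 were higher in TM+ DCs, by 1.95-fold, 1.49-fold and 1.28-fold. Ptges2, Hpgd and Ptger4 did not pass the test. Thus 5 of 8 genes (62.5%) passed the test on the mean of untreated and sTM cultures, against 37.3% of all genes (18.6% higher, 18.7% lower). As the genes were chosen with earlier results known, such shares, here and below, only stand side by side, and no enrichment is read from them. With each array centred on its 75th percentile, 3168 of all genes were higher and 7173 lower, against 3709 higher and 3729 lower without centring, and the median of all genes lay at -0.16, against -0.08. These 5 genes had the same directions on either scale. Centring likewise gave 2131 higher and 2331 lower in untreated cultures, against 2623 and 1582 without it, and 2120 higher and 3718 lower in sTM cultures, against 2311 and 2481.

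Ptgs2, the inducible cyclooxygenase, was among the brightest genes on the array (99.3 percentile of mean level). In TM+ DCs of untreated cultures it measured 9.12 and 9.38 in experiment 3 and 9.32 and 11.21 in experiment 4, against 13.49, 13.44, 13.57 and 13.55 in TM- DCs. All 4 untreated TM+ arrays were below all 4 untreated TM- arrays. In sTM cultures TM+ DCs had 11.28 and 11.24 in experiment 2, 12.83 and 12.98 in experiment 3, and 8.01 and 7.84 in experiment 4. The TM- DCs of the same cultures had 13.16 and 13.15 in experiment 2, 13.41 and 12.60 in experiment 3, and 13.71 and 13.72 in experiment 4. TM+ arrays thus spanned 7.84 to 12.98 and TM- arrays 12.60 to 13.72, and the ranges overlapped only through experiment 3 with sTM. The log2 difference between TM+ and TM- DCs was -3.17 (SE 0.52, 95% interval -4.26 to -2.09, limma adjusted p = 6.09e-05) on the mean of both treatments. It was -2.59 in sTM cultures (SE 0.66, adjusted p = 0.0072), where 24.0% of all genes passed, and -3.75 in untreated cultures (SE 0.81, adjusted p = 0.00177), where 21.1% did.

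Ptges, the microsomal synthase that acts downstream of Ptgs2, followed the same order. It measured 8.18 and 8.10 in TM+ DCs of untreated cultures in experiment 3 and 7.93 and 8.75 in experiment 4, against 11.71, 11.68, 12.10 and 12.28 in TM- DCs. In sTM cultures TM+ DCs had 8.89 and 8.78 in experiment 2, 10.89 and 10.90 in experiment 3, and 7.62 and 7.44 in experiment 4. TM- DCs of sTM cultures had 10.89 and 10.89, 11.82 and 11.75, and 11.94 and 11.95 in these experiments. Within every experiment and treatment the TM+ arrays were below the TM- arrays. Only the experiment 3 TM+ arrays with sTM reached the lowest TM- arrays, those of experiment 2. The log2 difference was -3.08 (SE 0.34, limma adjusted p = 4.16e-07), with -2.45 (SE 0.43, adjusted p = 0.000285) in sTM cultures and -3.70 (SE 0.52, adjusted p = 2.77e-05) in untreated cultures.

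The other prostaglandin E synthases differed less. Ptges3, the cytosolic synthase that is also the Hsp90 co-chaperone p23, had a lowest, median and highest value of 10.62, 11.36 and 11.74 in TM+ DCs and 9.59, 10.82 and 11.42 in TM- DCs of sTM cultures. In untreated cultures TM+ DCs had 10.90, 10.72, 11.72 and 11.64, against 10.87, 10.66, 10.59 and 10.27 in TM- DCs. The groups overlapped, with the widest gap in experiment 4. Its difference was 0.58 (SE 0.15, limma adjusted p = 0.00524), and for its other clusters 0.55 (adjusted p = 0.0123) and 0.45 (adjusted p = 0.0654). The call was lost without experiment 4 (0.27, adjusted p = 0.524). Ptges3 did not pass in untreated cultures (0.65, adjusted p = 0.0552) or in sTM cultures (0.50, adjusted p = 0.0617) taken alone. Ptges2, the membrane-associated synthase, spanned 7.23 to 8.72 in TM+ DCs and 7.28 to 8.83 in TM- DCs, with the experiment 2 arrays highest in both. Its difference was 0.04 (95% interval -0.23 to 0.30, adjusted p = 0.829).

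Tbxas1, which makes thromboxane A2, was the only one of the 8 genes whose 10 TM+ and 10 TM- arrays did not overlap, as held for 3.17% of all genes. TM+ DCs had 10.95 and 11.07 in experiment 2, 10.85 and 10.89 in experiment 3, and 10.92 and 10.84 in experiment 4 with sTM, and 10.77, 10.80, 11.03 and 10.95 without it. TM- DCs had 9.88 and 9.93, 10.04 and 9.94, and 10.04 and 9.93 with sTM, and 9.96, 9.79, 9.97 and 9.97 without it. The spread within a fraction was far smaller than for Ptgs2 or Ptges. The log2 difference was 0.96 (SE 0.05, limma adjusted p = 4.76e-11), and 0.96 in sTM cultures and in untreated cultures alike.

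Hpgd, which begins the breakdown of prostaglandin E2, was dim (19.1 percentile), with 5.05 to 5.44 in TM+ DCs and 4.93 to 5.76 in TM- DCs of sTM cultures. In untreated cultures it measured 5.68, 5.81, 5.14 and 5.27 in TM+ DCs and 5.41, 5.45, 5.44 and 5.42 in TM- DCs. The ranges overlapped, and the difference was -0.04 (95% interval -0.21 to 0.13, limma adjusted p = 0.692).

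Of the receptors, Ptger2 was slightly higher in TM+ DCs. It had a lowest, median and highest value of 7.19, 7.38 and 7.71 in TM+ DCs and 6.49, 6.99 and 7.31 in TM- DCs of sTM cultures. In untreated cultures TM+ DCs had 7.38, 7.41, 6.48 and 6.29, against 7.06, 7.17, 6.14 and 6.23 in TM- DCs, with both fractions lower in experiment 4. The difference was 0.35 (SE 0.10, limma adjusted p = 0.00866), with 0.46 (adjusted p = 0.0113) in sTM cultures and 0.24 (adjusted p = 0.315) in untreated cultures, and the mean was 0.29 (adjusted p = 0.0723) without experiment 4. In sTM cultures the call was lost with no experiment term (0.46, adjusted p = 0.177), without experiment 2 (0.55, adjusted p = 0.0697) and without experiment 4 (0.31, adjusted p = 0.111), and in untreated cultures Ptger2 passed with array weights (0.79, adjusted p = 3.71e-06). Ptger4 spanned 8.24 to 9.26 in TM+ DCs and 8.12 to 9.71 in TM- DCs. Its difference on the mean was -0.04 (95% interval -0.38 to 0.31, adjusted p = 0.863), with opposite signs in experiments 3 and 4. In exact permutation tests of the arrays within experiment and treatment (two-sided, 7776 arrangements, unadjusted), p was 0.000257, the smallest possible, for Ptges, Tbxas1 and Ptger2, and 0.000772 for Ptgs2 and Ptges3.

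**Figure D2:**
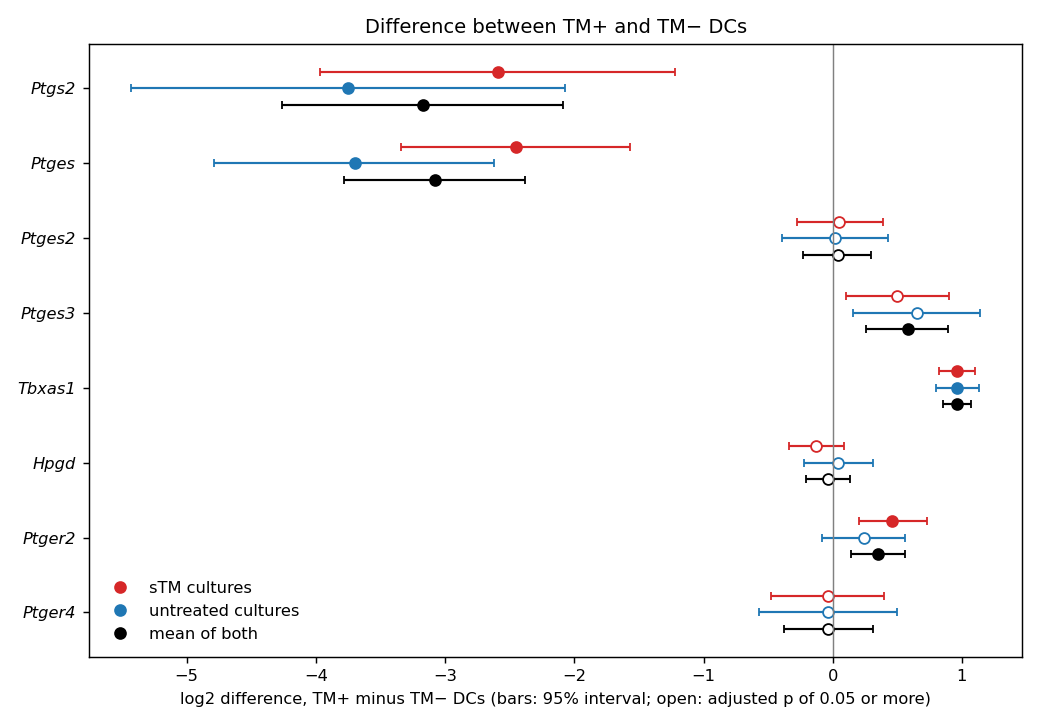
Log2 difference between TM+ and TM- DCs for the 8 genes, in sTM cultures, untreated cultures and their mean, with 95% intervals from limma and open symbols where the adjusted p is 0.05 or more. Ptgs2 and Ptges lie near -3 with wide intervals, and Tbxas1 lies at 0.96 in each comparison with narrow ones.

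The size of the difference in Ptgs2 and Ptges varied between experiments. Within 1 experiment and treatment, TM+ minus TM- DCs was, for Ptgs2, -1.89 in experiment 2, -0.10 in experiment 3 and -5.79 in experiment 4 with sTM, and -4.21 in experiment 3 and -3.29 in experiment 4 without it. For Ptges it was -2.06, -0.89 and -4.41 with sTM in experiments 2, 3 and 4, and -3.56 and -3.85 without it in experiments 3 and 4. Tbxas1 differed by 0.88 to 1.10 over the same 5 strata. Of the 8 genes, 5 had 1 direction in all 5 strata (Ptgs2, Ptges, Ptges3, Tbxas1 and Ptger2), against 31.4% of all genes. For Ptges3 this is the brightest cluster. Its dimmest cluster was higher in 4 strata and lower in 1, at -0.25 in untreated cultures of experiment 3. Ptger4 was lower in TM+ DCs in experiment 3 (-0.71 with sTM and -0.91 without) and higher in experiment 4 (0.07 and 0.84) and experiment 2 (0.52).

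The difference between experiments 3 and 4 was tested with a mean fitted for each fraction, treatment and experiment over the 20 sorted arrays. The error is the spread between the 2 arrays behind each mean, pooled over all of these means. In limma it is also drawn toward the spread of other genes. For the sorting difference averaged over treatments, experiment 3 minus experiment 4 was 2.39 for Ptgs2 (SE 0.36, limma adjusted p = 5.93e-05), 1.91 for Ptges (SE 0.17, adjusted p = 3.01e-07), -1.27 for Ptger4 (SE 0.13, adjusted p = 8.35e-07) and -0.40 for Ptges2 (SE 0.12, adjusted p = 0.0189). Thus 4 of 8 genes passed, against 24.5% of all genes (1693 higher and 3196 lower, or 2770 and 2491 with arrays centred). Ptges2 no longer passed with arrays centred (-0.27, adjusted p = 0.0759) or without the first experiment 4 array of untreated TM+ DCs (-0.36), the first of TM+ DCs with sTM (-0.34) or the second of untreated TM- DCs (-0.37).

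sTM and untreated cultures were compared to ask whether soluble TM changed the pathway. On the mean of both fractions none of the 8 genes passed (limma), with 1, Ptger2, at an unadjusted p under 0.05. Over all genes 0.0150% passed and 1607 had an unadjusted p under 0.05. Ptger2 was 0.41 higher with sTM (SE 0.11, 95% interval 0.19 to 0.63, adjusted p = 0.164), and passed with experiment as a fixed term (adjusted p = 0.0454) or without experiment 3 (0.65, adjusted p = 0.032). It was the only gene of the 8 with 1 direction in all 4 strata, 0.22 and 0.92 in TM+ DCs and 0.18 and 0.34 in TM- DCs of experiments 3 and 4, against 14.2% of all genes. An exact permutation test within experiment and fraction gave the smallest p it allows for Ptger2, 0.00154 (two-sided, 1296 arrangements, unadjusted). Ptgs2 differed by 0.28 (95% interval -0.88 to 1.45, adjusted p = 0.955) and Tbxas1 by 0.03 (95% interval -0.09 to 0.15).

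In TM+ DCs alone none of the 8 genes passed (limma), against 0.853% of all genes, with 1 of the 8 and 2026 of all genes at an unadjusted p under 0.05. Ptgs2 was 0.86 higher with sTM (SE 0.76, 95% interval -0.73 to 2.45), Ptges 1.01 higher (SE 0.49, adjusted p = 0.506) and Ptger2 0.52 higher (SE 0.15, adjusted p = 0.109). Ptger2 passed there with experiment as a fixed term (adjusted p = 0.0323) or without experiment 3 (0.81, adjusted p = 0.0186). In TM- DCs 0 of the 8 genes passed (limma), against 0% of all genes, with none of the 8 and 722 of all genes at an unadjusted p under 0.05. Ptgs2 there differed by -0.29 (95% interval -1.88 to 1.29). For the interaction of sorting and sTM, 0.0100% of all genes and none of the 8 passed (limma), with 1227 of all genes and none of the 8 at an unadjusted p under 0.05. The interaction of Ptgs2 was 1.16 (95% interval -1.01 to 3.33, adjusted p = 0.948).

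The 2 experiments that held both treatments gave opposite values in TM+ DCs. Tests within 1 experiment and fraction were not among the planned comparisons, and each sets 2 arrays against 2. Their error is pooled over all groups and experiments of sorted DCs. It can understate the spread of a wide pair, such as Ptgs2 in untreated TM+ DCs of experiment 4 (SD 1.33). In experiment 3, TM+ DCs had 12.83 and 12.98 for Ptgs2 with sTM, against 9.12 and 9.38 untreated. In experiment 4 they had 8.01 and 7.84 with sTM, against 9.32 and 11.21 untreated. Ptgs2 was therefore 12.6-fold higher with sTM in experiment 3 (3.66, limma adjusted p = 6.33e-07), where 8.30% of all genes passed, and 5.07-fold lower with sTM in experiment 4 (-2.34, adjusted p = 0.000537), where 5.52% did. Ptges did likewise, 6.76-fold higher in experiment 3 (2.76, adjusted p = 1.35e-09) and 1.75-fold lower in experiment 4 (-0.81, adjusted p = 0.00793). Also passing were Ptger4 in experiment 3 (0.48, adjusted p = 0.019) and Ptger2 in experiment 4 (0.92, adjusted p = 0.000193). In TM- DCs, Ptgs2 differed by -0.46 in experiment 3 and 0.16 in experiment 4, and Ptges by 0.09 and -0.25. Ptges3 was the 1 gene of the 8 to pass in TM- DCs of experiment 3 (-0.71, adjusted p = 0.0304), at 10.50 and 9.59 with sTM, against 10.87 and 10.66 untreated, where 7.88% of all genes passed. In experiment 4 none of the 8 passed in TM- DCs (limma), against 1.41% of all genes, with 2 of the 8 and 1903 of all genes at an unadjusted p under 0.05.

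For the sTM difference averaged over fractions, experiment 3 minus experiment 4 was 2.69 for Ptgs2 (SE 0.36, limma adjusted p = 5.04e-05), 1.95 for Ptges (SE 0.17, adjusted p = 2.87e-07) and -0.43 for Ptger2 (SE 0.13, adjusted p = 0.0428), so 3 of 8 genes passed, against 8.55% of all genes. The Ptger2 value lost its call when any 1 of 11 arrays was left out (-0.45 to -0.37). A comparison in TM+ DCs alone, chosen after the values were seen, gave 6.00 for Ptgs2 (SE 0.51, adjusted p = 1.62e-07), 3.57 for Ptges (SE 0.24, adjusted p = 1.15e-08), 0.77 for Ptger4 (adjusted p = 0.0101) and -0.69 for Ptger2 (adjusted p = 0.0219), 4 of 8 against 6.72% of all genes. In TM- DCs alone, Ptges3 passed (-1.11, adjusted p = 0.0248), 1 of 8 against 5.29%. Leaving out single arrays ended the call of Ptger2 in TM+ DCs for 5 arrays (-0.71 to -0.57), of Ptger4 there for 4 arrays (0.67 to 0.72) and of Ptges3 in TM- DCs for 5 arrays (-1.12 to -0.65, the last without the second experiment 3 array of TM- DCs with sTM). All of these use the same arrays and rest on 2 arrays per group and experiment.

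**Figure D3:**
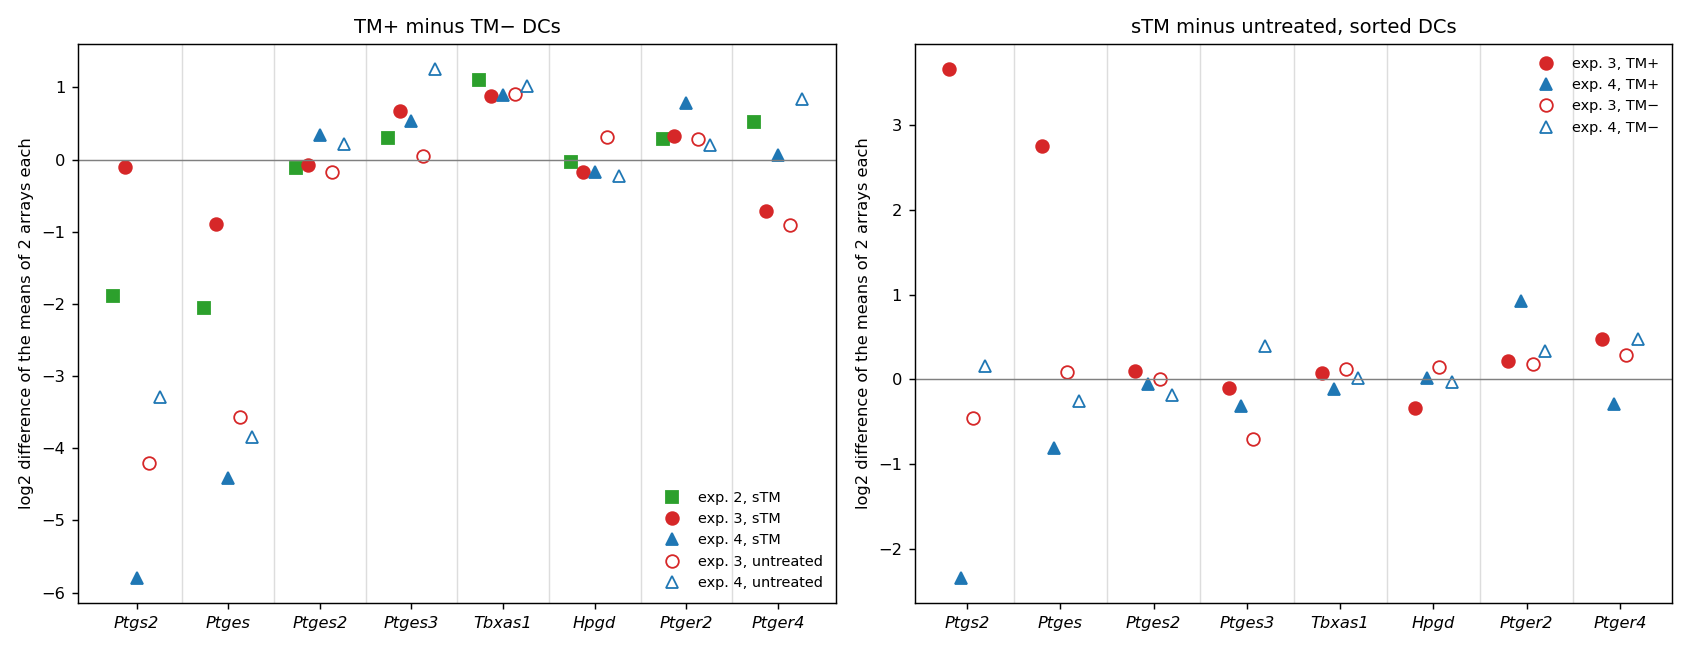
Log2 differences within single experiments: on the left TM+ minus TM- DCs in 5 combinations of experiment and treatment, on the right sTM minus untreated in 4 combinations of experiment and fraction. For Ptgs2 the sTM difference in TM+ DCs is 3.66 in experiment 3 and -2.34 in experiment 4, while Tbxas1 keeps 0.88 to 1.10 between the fractions.

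The experiment 3 TM+ arrays with sTM stood apart in other genes too, which were picked after their values were seen. Ccl5, a chemokine, was at 13.59 and 13.65 there, against 10.12 to 12.14 in the other TM+ arrays and 13.04 to 13.92 in TM- DCs. Ccr7, the receptor that guides mature DCs to lymph nodes, was at 12.44 and 12.55, against 10.55 to 11.51 in the other TM+ arrays. S100a8, a granulocyte gene, was at 7.25 and 7.31, against 10.45 to 12.37 in the other TM+ arrays. These arrays were thus closer to TM- DCs in Ccl5, Ccr7 and S100a8. They were not so in Ccr2, a monocyte chemokine receptor, at 9.42 and 10.05 against 5.61 to 7.17 in TM- DCs, in Mrc1, the mannose receptor, at 9.20 and 9.52 against 5.64 to 6.52, or in Tbxas1. The summed intensity of the 10 granulocyte markers in TM+ DCs with sTM was 4291 to 4318 in experiment 2, 1897 to 1962 in experiment 3 and 10520 to 11041 in experiment 4, and that in untreated TM+ DCs 7613 to 8073 in experiment 3 and 18092 to 19026 in experiment 4. The sum of the 6 eosinophil markers in TM+ DCs with sTM was 2857 to 3007, 956 to 977 and 2725 to 2822 in experiments 2, 3 and 4, and that in untreated TM+ DCs 2079 to 2225 in experiment 3 and 4056 to 4194 in experiment 4. The experiment 3 TM+ arrays with sTM had the lowest sums and the highest Ptgs2 and Ptges among TM+ arrays. Mean Ptgs2 in TM+ DCs was 11.26 in experiment 2 with sTM, 9.25 in experiment 3 untreated and 7.92 in experiment 4 with sTM. It thus fell as the granulocyte sum rose over these. Untreated TM+ DCs of experiment 4 departed from that order, with the highest sums and a mean Ptgs2 of 10.27 (arrays at 9.32 and 11.21). The eosinophil sums did not follow the order of Ptgs2. The part of these cells in the difference was not tested.

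In unsorted DCs, sTM and untreated cultures were compared over 3 experiments. Ptgs2 had a lowest, median and highest value of 11.93, 12.30 and 13.60 with sTM, against 12.30, 13.23 and 13.55 untreated, and Ptges 8.63, 9.97 and 10.98 with sTM, against 9.33, 10.57 and 11.59 untreated. Tbxas1 had 9.69, 10.59 and 10.81 with sTM, against 9.67, 10.08 and 10.63 untreated. The ranges overlapped in all 3 genes. The Ptgs2 difference was -0.53 (SE 0.21, 95% interval -0.96 to -0.09, limma adjusted p = 0.991), and by experiment -0.48, -0.16 and -0.98 in experiments 1, 2 and 3. None of the 8 genes passed (limma), against 0% of all genes, with 1 of the 8, Ptgs2, and 940 of all genes at an unadjusted p under 0.05. With the first and last pairs of experiment 1 arrays as separate blocks, chosen after the data were seen, Ptgs2 (-0.53, adjusted p = 0.0406) and Ptges (-0.59, adjusted p = 0.0371) passed. Exact permutation tests within experiment (two-sided, 2520 arrangements, unadjusted) gave p = 0.0127 for Ptges2 (0.28 higher with sTM), 0.0365 for Ptgs2, 0.0405 for Tbxas1 and 0.0437 for Ptges. A test for differences among the 3 experiments passed in none of the 8 genes and in 0.00502% of all genes (limma), with 658 of all genes at an unadjusted p under 0.05.

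Unsorted DCs were also set against each fraction, over the 3 combinations of experiment and treatment that held unsorted, TM+ and TM- arrays. Unsorted DCs had not gone through the antibody and bead separation, so effects of handling and of cell composition cannot be told apart. On average they lay between the fractions in Ptgs2, Ptges and Tbxas1. In experiment 3 with sTM, however, Ptgs2 was lower in unsorted DCs (12.40 and 12.33) than in either TM+ DCs (12.83 and 12.98) or TM- DCs (13.41 and 12.60). Unsorted minus TM- DCs was -0.57 for Ptgs2 (SE 0.11, limma adjusted p = 0.00197), -0.84 for Ptges (SE 0.07, adjusted p = 3.2e-07) and 0.46 for Tbxas1 (SE 0.07, adjusted p = 0.000305), 3 of 8 genes against 8.24% of all genes (608 higher and 1034 lower, or 778 and 865 with arrays centred). Unsorted minus TM+ DCs was 1.50 for Ptgs2 (adjusted p = 1.39e-08), 1.33 for Ptges (adjusted p = 3.9e-10) and -0.50 for Tbxas1 (adjusted p = 4.72e-05), again 3 of 8, against 16.6% (1098 higher and 2212 lower, or 1776 and 1759 centred). Both comparisons use the same unsorted arrays.

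Ordered by group mean from low to high, Ptgs2 ran 9.76 ± 0.98 in untreated TM+ DCs (SD, n = 4), 10.70 ± 2.27 in TM+ DCs with sTM (n = 6), 12.55 ± 0.62 in unsorted DCs with sTM (n = 8), 13.08 ± 0.47 in untreated unsorted DCs (n = 8), 13.29 ± 0.42 in TM- DCs with sTM (n = 6) and 13.51 ± 0.06 in untreated TM- DCs (n = 4). Ptges ran 8.24 ± 0.35, 9.09 ± 1.52, 9.91 ± 0.96, 10.49 ± 0.88, 11.54 ± 0.51 and 11.94 ± 0.29 in the same order of groups. For each of the 8 genes, every group's range over all its experiments overlapped that of the next group in its order. These ranges pool experiments, and within experiments 3 and 4 the TM+ arrays with and without sTM did not overlap in Ptgs2 or Ptges.

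**Figure D4:**
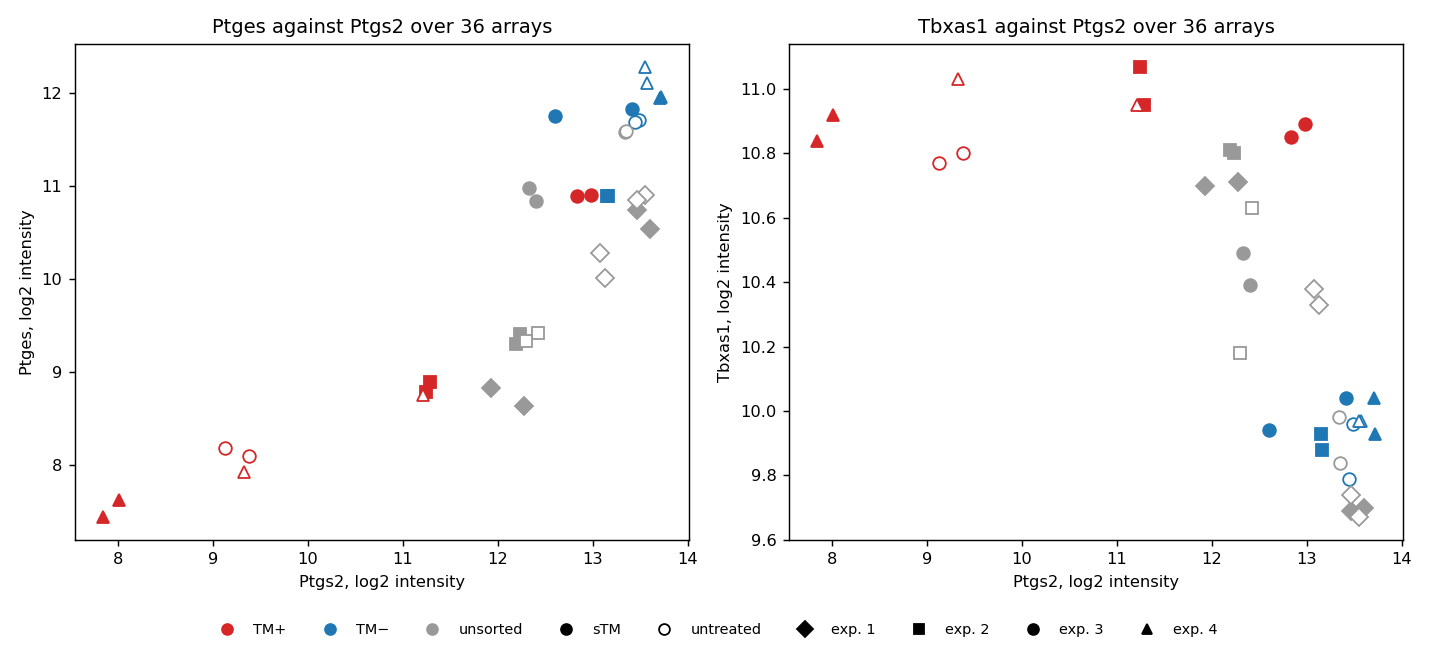
Log2 intensity of Ptges (left) and Tbxas1 (right) against that of Ptgs2 over all 36 arrays, 1 point per array, coloured by fraction. Ptges tends to be higher where Ptgs2 is higher, but not evenly. Unsorted arrays with sTM at 12.27 (experiment 1) and 12.33 (experiment 3) for Ptgs2 have 8.63 and 10.98 for Ptges. Tbxas1 separates TM+ from TM- DCs also where Ptgs2 is as high in both, in experiment 3 with sTM.

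The genes whose pattern was most like that of each member were taken by Pearson's r over the 20 sorted arrays, which share 3 experiments, so the values describe these arrays only. Nearest to Ptgs2 were Ccl5 (0.980), Traf1 (0.957) and Clec4e (0.956), with Ptges at 0.954 and Tbxas1 at -0.743. Nearest to Ptges were Layn (0.981), Itgb8 (0.980) and Car13 (0.974). Tbxas1 was nearest to the lipoxygenase Alox15 (0.977), Ccr2 (0.973) and Ak8 (0.973). Nearest to Ptger2 were Ptgr2 (0.940), Ctbs (0.926) and Gpt2 (0.919), and to Ptger4 Ptpn9 (0.886), Stim2 (0.883) and Fam122a (0.864). Ptges2 was nearest to Gng10 (0.973), Ptges3 to Serbp1 (0.955) and Hpgd to Chd3 (0.914).

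Of 38 other genes of prostanoid supply, synthesis, breakdown, sensing and transport, 36 were measured, 1 of them, Ptgr3, under its older symbol Zadh2. Between the fractions 6 were higher in TM+ DCs and 10 lower, with a median difference of -0.13 over the list, against -0.08 over all genes. The 6 and 10 of 36 compare with 18.6% higher and 18.7% lower among all genes, and nothing particular to the list is read from them. The counts were 5 higher and 16 lower with arrays centred, and 5 higher and 3 lower without experiment 4. Lower were the cytosolic phospholipase Pla2g4a (-0.41, SE 0.09, limma adjusted p = 0.0011), which frees arachidonic acid, and the secreted phospholipase Pla2g5 (-0.65, SE 0.08, adjusted p = 2.62e-06). Pla2g4a did not pass without experiment 4 (-0.37, adjusted p = 0.0649). It ranged from 9.88 to 10.45 in TM+ DCs and from 9.82 to 10.77 in TM- DCs, so the ranges overlapped. Also lower was the transporter Slco3a1 (-1.09, SE 0.20, adjusted p = 0.000223), at 8.19 to 9.81 in TM+ DCs and 8.90 to 10.87 in TM- DCs with sTM, and 8.56 to 9.57 and 10.09 to 10.27 without it. The prostacyclin receptor Ptgir was also lower (-0.36, adjusted p = 0.0328), as was the reductase Ptgr1 (-0.34, adjusted p = 0.00234), and neither passed without experiment 4 (-0.11 and -0.28).

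Higher in TM+ DCs were the aldo-keto reductase Akr1c18 (0.94, SE 0.18, limma adjusted p = 0.000251), the reductase Ptgr2 (0.52, adjusted p = 0.000861), Ptgfrn, a membrane protein known as a negative regulator of the prostaglandin F2 receptor (0.66, adjusted p = 3.93e-05), and the monoacylglycerol lipase Mgll (0.47, adjusted p = 0.000384). Ptgr2 did not pass without experiment 4 (0.34, adjusted p = 0.057). Akr1c18 ranged from 10.77 to 12.20 in TM+ DCs and from 10.01 to 11.18 in TM- DCs with sTM, and from 11.61 to 12.51 and from 10.62 to 11.47 without it. Hpgds, the hematopoietic prostaglandin D synthase, had 6.09 and 6.46 in experiment 2, 5.22 and 5.50 in experiment 3 and 6.86 and 6.82 in experiment 4 in TM+ DCs with sTM, against 8.02, 8.03, 8.32 and 8.21 in untreated TM+ DCs. TM- DCs had 5.43 to 6.55 with sTM and 6.29 to 6.80 untreated. The fractions thus differed in untreated cultures (1.55, adjusted p = 1.31e-05) and not past the test in sTM cultures (0.21, adjusted p = 0.349), while the interaction itself was -1.34 (adjusted p = 0.139). In TM+ DCs the sTM minus untreated difference of Hpgds was negative in both experiments, -2.67 in experiment 3 and -1.42 in experiment 4, where those of Ptgs2 and Ptges had opposite signs.

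Of 7 genes that act in or are targets of cyclic AMP signalling or otherwise downstream, 6 were measured. Between the fractions 2 were higher and 2 lower past the test, against 18.6% higher and 18.7% lower among all genes. Nothing particular to the list is read from these counts. The adenylyl cyclase Adcy7 (0.75, limma adjusted p = 5.87e-06) and the steroid dehydrogenase Hsd11b1 (0.44, adjusted p = 0.0145) were higher in TM+ DCs. The cyclic AMP phosphodiesterase Pde4b (-1.07, adjusted p = 2.85e-08) and the cyclic AMP responsive modulator Crem (-0.43, adjusted p = 0.00247) were lower. Without experiment 3, Hsd11b1 (0.12, adjusted p = 0.391) and Crem (-0.18, adjusted p = 0.0837) did not pass. Pde4b ranged from 8.63 to 9.46 in TM+ DCs and from 9.55 to 10.35 in TM- DCs, without overlap, as held for 3.17% of all genes.

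**Figure D5:**
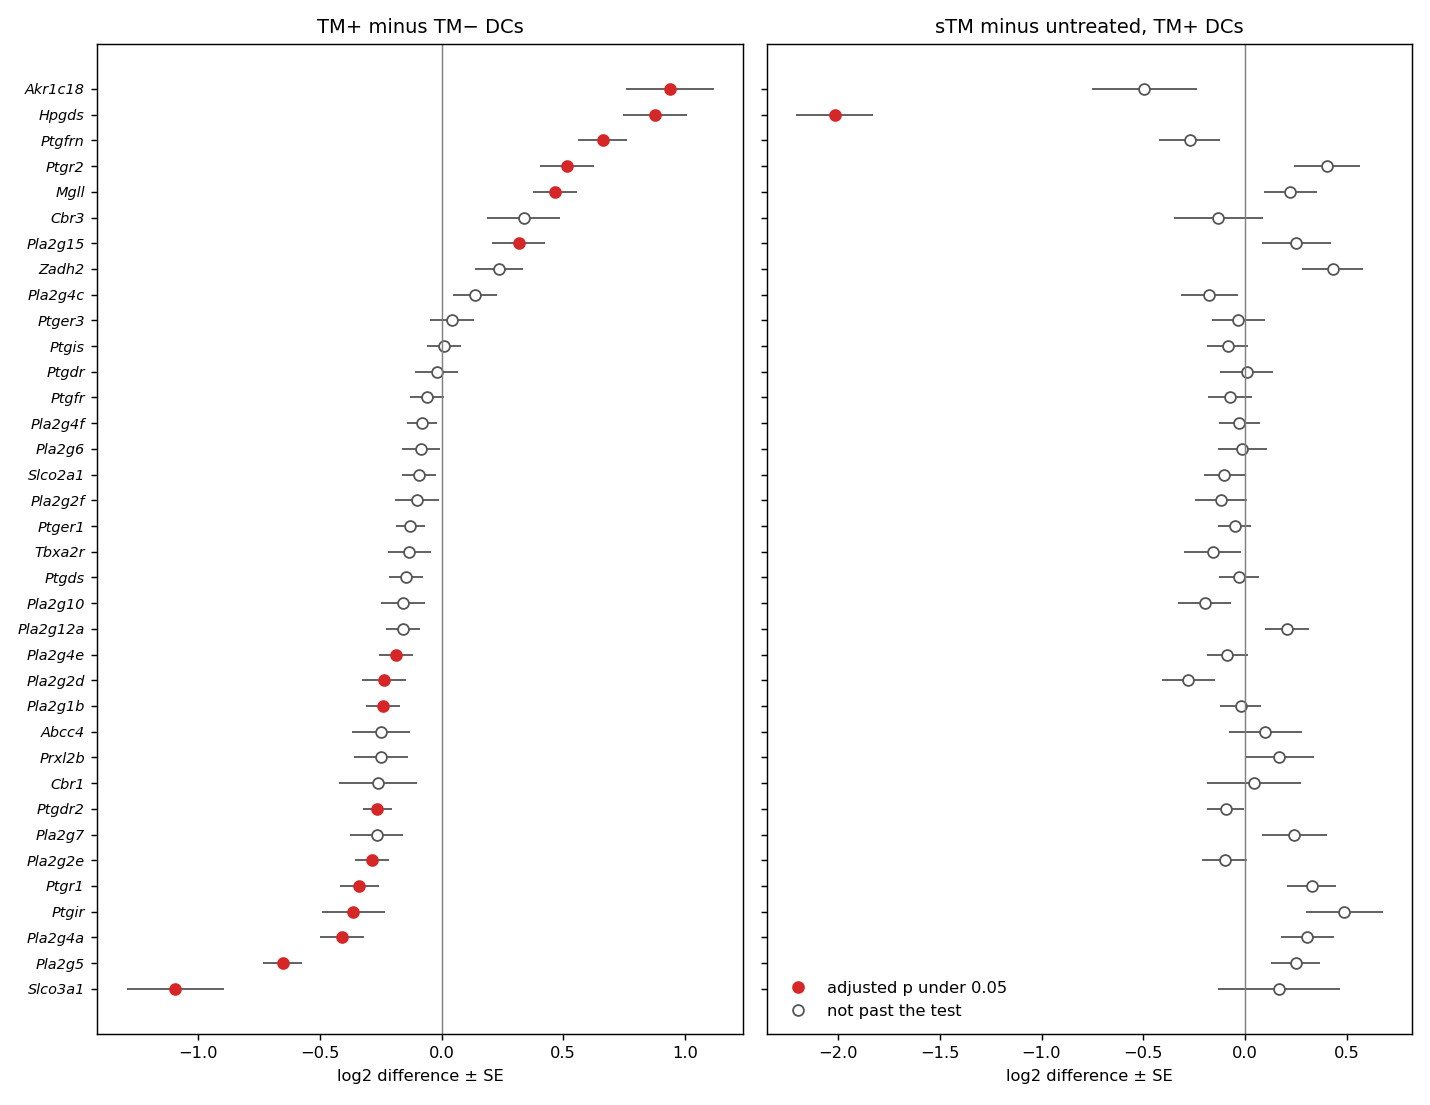
Log2 differences with SE for the 36 other prostanoid genes, TM+ minus TM- DCs on the left and sTM minus untreated in TM+ DCs on the right, filled where the limma adjusted p is under 0.05. Between the fractions 6 genes lie higher and 10 lower past the test, and with sTM in TM+ DCs Hpgds lies farthest from 0.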

How the data were processed

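The authors deposited linear array intensities for 36 mouse whole-transcript arrays; per the study's methods these were made by RMA (background correction, normalization and summarization) with APT 1.12.0 and annotated with NetAffx release 31. Neither a joint normalization of the 36 arrays nor the genome build of the array is stated in the sources used. The deposited intensity was taken to log2 with no pseudocount. Of 35556 transcript clusters, 21789 had 1 symbol, 1621 several and 12146 none; 999 symbols had more than 1 cluster, and 19919 of the 19938 symbols matched RefSeq symbols. The 8 measured genes, and the gene lists, were chosen with earlier results of these data known. All members are named in every group; of the other prostanoid genes all are counted and up to 12 past the test named; the 3 genes most alike by Pearson's r are named.

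Groups came from the labels. limma 3.58.1 (R 4.3.3, statmod 1.5.0) was fitted on all gene symbols, for sorted arrays by group and for unsorted arrays by treatment, with experiment as a random block (within-experiment correlation 0.396 and 0.375), and p-values were adjusted by the Benjamini-Hochberg method, with 0.05 as threshold. Comparisons between experiments used fixed group means. Exact permutation tests shuffled arrays within experiment. The fits were tested on simulated data. Python 3.11.15, numpy 2.4.6, pandas 2.3.3, scipy 1.17.1 and matplotlib 3.10.9 were used. Alternatives were experiment as a fixed term or no term, a replicate block, a filter at the 25th percentile, all clusters, other Ptges3 clusters, centring on the 75th percentile, quantile normalization, a trended robust fit, array weights, and leaving out each array and experiment. As arrays give intensities and not counts, the number of arrays limits the precision.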

Additional observations from a re-analysis of the deposited data

Results flagged for a closer look

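In the 6 groups of 4, 6 or 8 arrays, 3 of 48 combinations of gene and group held an array far from the rest, where chance gives about 5% of groups. Ptgs2 was highest, at 11.21, in the second array of experiment 4 of untreated TM+ DCs, with 0.871 of the range of that group lying between it and the next array. Tbxas1 was lowest, at 9.79, in the second array of experiment 3 of untreated TM- DCs (0.938 of the range). Hpgd was lowest, at 5.07, in the first array of experiment 2 of untreated unsorted DCs (0.57 of the range).

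Differences between experiments 3 and 4 passed the limma test for several genes. For TM+ minus TM- DCs, experiment 3 minus experiment 4 was 2.39 for Ptgs2 and 1.91 for Ptges, which were less far below 0 in experiment 3, -0.40 for Ptges2, and -1.27 for Ptger4, which was negative in experiment 3 and positive in experiment 4. The sTM minus untreated difference averaged over fractions gave, experiment 3 minus experiment 4, 2.69 for Ptgs2, 1.95 for Ptges and -0.43 for Ptger2. In TM+ DCs alone it gave 6.00 for Ptgs2, 3.57 for Ptges, -0.69 for Ptger2 and 0.77 for Ptger4, and in TM- DCs alone -1.11 for Ptges3. Each rests on 2 arrays per group and experiment, and the cause was not tested.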

How the results depend on the processing

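Ptgs2, Ptges and Tbxas1 kept their direction and stayed past the test between the fractions in all 33 alternatives run, at -3.93 to -2.60, -3.54 to -2.51 and 0.88 to 1.01. Ptges3 lost its call with no experiment term (adjusted p = 0.0606), without experiment 4 (0.27, adjusted p = 0.524) and with its dimmest cluster (0.45, adjusted p = 0.0654), and Ptger2 with no experiment term (adjusted p = 0.149) and without experiment 4 (0.29, adjusted p = 0.0723). The count of genes past the test between the fractions was 3 with no experiment term and 3 without experiment 4; in untreated cultures it was 6 with array weights and 5 without experiment 3. In untreated cultures Ptges3 gained a call in 9 alternatives and Hpgd in 1, and in sTM cultures Ptges3 gained a call in 5. Over the alternatives the count on the mean of both treatments ran from 3 to 6.

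The sTM comparisons turned on single experiments. Without experiment 4, 2 genes passed on the mean of fractions, Ptgs2 (1.51, adjusted p = 0.0082) and Ptges (1.25, adjusted p = 0.0134), 2 in TM+ DCs (3.12, adjusted p = 0.000134, and 2.29, adjusted p = 0.000878) and 2 in the interaction (3.22, adjusted p = 0.00397, and 2.09, adjusted p = 0.0342). Without experiment 3, Ptger2 passed on the mean (0.65, adjusted p = 0.032) and in TM+ DCs (0.81, adjusted p = 0.0186), 1 gene passed in each and 1 in the interaction, and the signs of Ptgs2 and Ptges turned: -0.95 and -0.52 on the mean, -1.23 and -0.21 in TM+ DCs, and -0.55 for the Ptgs2 interaction. With experiment as a fixed term 1 gene passed on the mean and 1 in TM+ DCs, Ptger2 (adjusted p = 0.0454 and 0.0323), and with array weights 2 on the mean and 1 in TM+ DCs. In TM- DCs Ptgs2 turned to 0.07 with array weights and Ptges to 0.20 without experiment 4. Leaving out 1 array moved the Ptgs2 sTM mean between -0.02 and 0.65. In unsorted DCs, 2 alternatives chosen after seeing the data gave 2 genes each: with experiment 1 as separate blocks Ptgs2 (-0.53, adjusted p = 0.0406) and Ptges (-0.59, adjusted p = 0.0371), and without the arrays numbered 3 and 4 of experiment 1 Ptgs2 at -0.71 (adjusted p = 0.0166).

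Signs turned for genes that did not pass. Between the fractions on the mean, Ptges2 was -0.04 when centred, -0.01 when quantile normalized and -0.13 without experiment 4; Hpgd was 0.04 when quantile normalized, 0.06 with array weights and 0.10 without experiment 4; Ptger4 was 0.0004 with array weights and 0.57 without experiment 3 (adjusted p = 0.000246). In untreated cultures Ptges2 was -0.08, -0.04, -0.15 and -0.17 in 4 settings, Hpgd -0.06 when centred and -0.23 without experiment 3, and Ptger4 0.06 with array weights and 0.84 without experiment 3. In sTM cultures Ptges2 was -0.0047 when centred and -0.09 without experiment 4, and Ptger4 0.30 without experiment 3. Leaving out 1 array gave -0.0043 to 0.08 for Ptges2, -0.09 to 0.0022 for Hpgd and -0.14 to 0.07 for Ptger4 on the mean, -0.06 to 0.08, -0.04 to 0.13 and -0.23 to 0.17 for these genes in untreated cultures, and -0.02 to 0.15 for Ptges2 and -0.12 to 0.09 for Ptger4 in sTM cultures.

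The labels do not say that array numbers pair the samples. Deviations of same-numbered arrays correlated at -0.249 to 0.306 across fractions. Across treatments they correlated at 0.350 and 0.403 in TM+ DCs, 0.087 and 0.089 in TM- DCs, 0.564 to 0.746 in unsorted DCs of experiment 1, and 0.026 and 0.133 in those of experiments 2 and 3, so not every pair was over 0.1. With a replicate block, 5 genes passed on the mean of the sorting comparison, 4 in untreated cultures (Ptges3 gained, adjusted p = 0.0427) and 4 in sTM cultures; 0 passed for sTM. Over all genes the counts past the test ranged, over the alternatives, from 2469 to 12087 for the sorting mean, 1315 to 9922 in untreated cultures, 1904 to 7500 in sTM cultures, 2 to 1840 for the sTM mean, 19 to 1233 in TM+ DCs, 0 to 628 in TM- DCs, 1 to 341 for the interaction and 0 to 234 in unsorted DCs. Between experiments 3 and 4, leaving out 1 array gave 2 to 5 genes for sTM in sorted DCs, 2 to 4 in TM+ DCs and 0 to 1 in TM- DCs.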
